A study of Mus musculus and Rattus norvegicus with 30 samples.

Results

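Schwann cells wrap the axons of the peripheral nerve, and 8 genes of these cells and of the myelin they make were followed in mouse and rat dorsal root ganglia (DRG): Pmp22, Mbp, Mag, Prx, Egr2, Mal, Sox10 and Ncmap. They were taken by gene symbol, and they are 8 of the 54315 annotated genes and assembled long noncoding RNAs (LncRNAs) in the mouse count table and of the 39281 features in the rat table. All 8 symbols were found in each species, and the first identifier with each symbol was used. In mouse all 8 passed the filter on low counts and were tested, whereas in rat 5 were tested and 3 were listed at 0.

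The mouse libraries came from L3 and L4 DRG of adult BALB/c and B10.D2 mice of both sexes, 1 animal per library, 28 days after spared nerve injury (SNI, which cuts the sural and common peroneal branches of the sciatic nerve and spares the tibial one) or sham surgery. Sham libraries numbered 6 in BALB/c and 5 in B10.D2, SNI libraries 4 and 5, and all were depleted of ribosomal RNA. The rat libraries came from L5 DRG of male Wistar rats 21 days after spinal nerve transection (SNT, in which the L5 spinal nerve is tied and cut) or sham surgery, with 4 libraries per group, 3 animals pooled in each and selection of polyadenylated RNA. The model therefore differs between the species in the ganglion, the injury, the time and the library type, and no test was made between mouse and rat. Library totals were 29989963 to 41881331 counts in mouse and 11954612 to 17887909 in rat. Levels are given in CPM, which are counts per 1000000 of the library total times its TMM factor, and changes as log2 fold changes of injured over sham from edgeR, where a feature is called at an adjusted p under 0.05.

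Myelinating Schwann cells form compact myelin from a few abundant proteins and lipids, and hold it against the axon with adhesion proteins and a membrane scaffold. Sox10 is a transcription factor of the Schwann cell lineage, but not of that lineage alone. Egr2 (also called Krox20) is the zinc finger factor that switches on the myelin programme together with Sox10. After a nerve is cut, Schwann cells beyond the cut lose myelin proteins and take up a repair state, but the DRG lies on the side of the neuron cell bodies, where other Schwann cells wrap the axons as they leave the ganglion. In whole ganglia, fewer Schwann cells and less RNA per Schwann cell cannot be told apart. Nor do whole-ganglion counts show which cells the RNA of a gene came from.

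Promoter windows of RefSeq (GRCm38.p6, 250 bases before the start site to 50 after it) were searched for 6 of the 8 genes, all but Mbp and Sox10. For each gene only the window nearest the annotated gene start was used. Pmp22 had 4 listed windows, Egr2 5, Mag 3 and Ncmap 2, and their other windows were not searched. The search covered both strands for ACAAAG, a core of SOX protein sites, and GTGGGNG, a core of EGR protein sites. The 4 windows printed below belong to Egr2 itself, to Mag, which changed most in rat, to Prx, the scaffold gene with a match, and to Pmp22, the highest of the genes and one without a match. Capitals mark the matches. They lie at chr10:67535249-67535548 on the plus strand, chr7:30914814-30915113 on the minus strand, chr7:27499074-27499373 on the plus strand and chr11:63128732-63129031 on the plus strand.
Egr2: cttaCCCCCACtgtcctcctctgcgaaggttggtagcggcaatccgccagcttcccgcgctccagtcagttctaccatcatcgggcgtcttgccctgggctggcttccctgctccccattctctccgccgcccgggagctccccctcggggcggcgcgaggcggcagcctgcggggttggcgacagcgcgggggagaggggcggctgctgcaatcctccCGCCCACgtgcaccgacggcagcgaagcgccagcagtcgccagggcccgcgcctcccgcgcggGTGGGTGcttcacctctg
Mag: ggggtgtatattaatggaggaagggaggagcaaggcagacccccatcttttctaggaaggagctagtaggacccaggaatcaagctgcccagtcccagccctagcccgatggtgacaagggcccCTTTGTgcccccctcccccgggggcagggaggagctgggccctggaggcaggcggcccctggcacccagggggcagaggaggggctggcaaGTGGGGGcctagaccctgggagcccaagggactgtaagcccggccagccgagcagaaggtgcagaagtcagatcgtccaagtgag
Prx: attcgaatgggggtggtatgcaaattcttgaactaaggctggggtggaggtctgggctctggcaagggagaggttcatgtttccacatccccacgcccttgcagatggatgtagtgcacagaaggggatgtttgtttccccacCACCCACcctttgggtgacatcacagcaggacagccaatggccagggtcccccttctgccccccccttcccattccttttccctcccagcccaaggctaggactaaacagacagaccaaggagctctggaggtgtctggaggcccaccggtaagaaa
Pmp22: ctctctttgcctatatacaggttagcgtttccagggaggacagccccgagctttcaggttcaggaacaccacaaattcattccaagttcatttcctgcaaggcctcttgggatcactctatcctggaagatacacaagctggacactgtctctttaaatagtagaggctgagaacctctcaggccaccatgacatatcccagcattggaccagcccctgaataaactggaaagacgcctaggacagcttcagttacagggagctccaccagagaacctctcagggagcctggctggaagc
Egr2 held 3 matches to the EGR core, at -246 to -240, -31 to -25 and 32 to 38 from the start site. Mag held 1 match to each, with the SOX core at -126 to -121 and the EGR core at -35 to -29, and was the only one of the 6 windows with the SOX core. Prx held the EGR core at -107 to -101, Ncmap held it at -175 to -169, and Pmp22 and Mal held neither. Among all 32851 promoter windows of this length, 18.7% held ACAAAG and 31.6% held GTGGGNG, so these letters are common and mark no site by themselves.

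The genes lie on 7 mouse chromosomes (mm10, GENCODE M21). Of the compact myelin proteins, Pmp22 (ENSMUSG00000018217) lies on chromosome 11 at 63128982 to 63159547 on the plus strand, and Mbp (ENSMUSG00000041607) on chromosome 18 at 82475146 to 82585637 on the plus strand. Mag (ENSMUSG00000036634), an adhesion protein of the myelin layer that faces the axon, lies on chromosome 7 at 30899176 to 30914873 on the minus strand. Prx (ENSMUSG00000053198), the periaxin scaffold that links the Schwann cell membrane to the basal lamina, lies on the same chromosome at 27499324 to 27520214 on the plus strand. Mal (ENSMUSG00000027375), a membrane raft protein of myelin, lies on chromosome 2 at 127633226 to 127656695, and Ncmap (ENSMUSG00000043924), a protein of noncompact myelin, on chromosome 4 at 135369576 to 135398227, both on the minus strand. Sox10 (ENSMUSG00000033006) lies on chromosome 15 at 79154908 to 79165240 on the minus strand and Egr2 (ENSMUSG00000037868) on chromosome 10 at 67535475 to 67542188 on the plus strand.

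Per kilobase of merged exons, the levels of the 8 genes spanned a wide range and kept nearly the same order in the 4 mouse groups. Pmp22 was highest, at 354 ± 106 CPM per kilobase (SD, n = 6) in BALB/c sham and 322 ± 14.8 (SD, n = 5) in B10.D2 sham. Mbp followed at 94.6 ± 32.6 (SD, n = 6) and 77.8 ± 2.42 (SD, n = 5) CPM per kilobase, then Prx at 58.7 ± 20.5 and 52.7 ± 6.57, and Mal at 58.2 ± 14.3 and 55.6 ± 4.40, in the same groups. Ncmap had 31.0 ± 7.84 and 33.3 ± 4.65, Sox10 had 12.2 ± 1.92 and 13.1 ± 2.14, Mag had 5.13 ± 1.48 and 5.12 ± 0.457, and Egr2 had 3.79 ± 1.13 and 3.15 ± 0.792 CPM per kilobase. The Prx and Mal libraries overlapped in all 4 groups, and those of Mag and Egr2 overlapped in 3 of them, all but B10.D2 sham. In BALB/c sham the neighbours Mbp and Prx and the neighbours Mal and Ncmap also overlapped. Pmp22 was above every other gene without overlap in each group. Together the 8 genes took 0.148% to 0.342% of all counts in a mouse library.

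SNI left no detectable change in any of the 8 genes at 28 days in either strain. With edgeR, 0 of 8 were called in BALB/c, where 9.69% of all 24685 features tested were called, and 0 of 8 in B10.D2, where 4.58% were. At an unadjusted p under 0.05 the number was also 0 in both strains, and DESeq2 called 0 of 8 in both. The median log2 fold change of the 8 genes was 0.006 in BALB/c and -0.011 in B10.D2, beside 0.003 and 0.008 over all features. The injury itself was plain in the same libraries, since 10 of 10 nerve injury markers were called higher in each strain, with a median of 2.37 on the log2 scale for BALB/c and 1.54 for B10.D2.

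Pmp22 was at 678, 1277, 755, 953, 577 and 760 CPM in BALB/c sham libraries 50, 51, 55, 56, 57 and 71, and at 877, 790, 795 and 854 CPM in BALB/c SNI libraries 49, 64, 65 and 70. The 4 injured libraries lay inside the range of the sham libraries, with means of 828.9 ± 43.1 (SD, n = 4) against 833 ± 250 CPM (SD, n = 6). The log2 fold change was -0.01 (95% interval -0.29 to 0.28, edgeR adjusted p 0.987). In B10.D2, Pmp22 was at 748, 739, 719, 810 and 770 CPM in sham libraries 58, 60, 67, 77 and 88, and at 737, 778, 814, 748 and 739 CPM in SNI libraries 69, 76, 78, 89 and 90. All 10 lay close together, and the log2 fold change was 0.03 (95% interval -0.25 to 0.31, edgeR adjusted p 0.947).

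**Figure D1:**
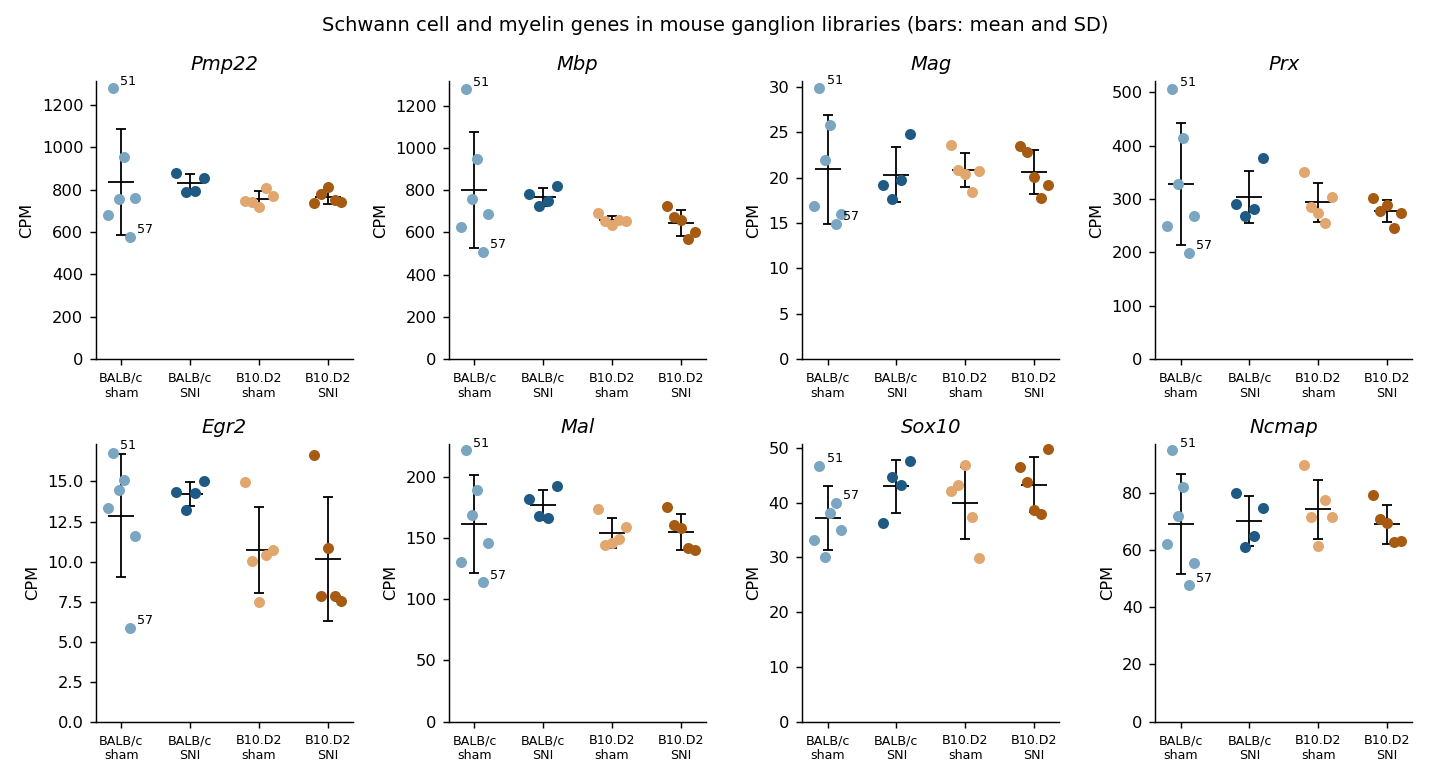
Level of each of the 8 genes in CPM (vertical axis, linear from 0) in every mouse library, by strain and surgery (horizontal axis), with the group mean and SD as bars. The BALB/c sham points spread most for 6 genes, all but Egr2 and Sox10, with library 51 highest for all 8 genes and library 57 lowest for 7 of them, and the sham and SNI points overlap for each gene.

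Mbp was at 509 to 1279 CPM (median 723, n = 6) in BALB/c sham and at 783, 726, 748 and 822 CPM in BALB/c SNI. Its log2 fold change was -0.06 (95% interval -0.39 to 0.28) in BALB/c and -0.02 (-0.35 to 0.32) in B10.D2. Prx, at 328 ± 115 CPM (SD, n = 6) in BALB/c sham and 294 ± 36.7 CPM (SD, n = 5) in B10.D2 sham, had log2 fold changes of -0.11 (-0.48 to 0.26) and -0.05 (-0.42 to 0.32). For Pmp22, Mbp and Prx the intervals of both strains reached at lowest -0.48 and at highest 0.32 on the log2 scale. Mag, whose sham means were 20.9 ± 6.04 (SD, n = 6) and 20.8 ± 1.86 CPM (SD, n = 5), had log2 fold changes of -0.04 (-0.37 to 0.29) and -0.01 (-0.33 to 0.32). Mal had 0.13 (-0.14 to 0.40) and 0.02 (-0.25 to 0.28), and Ncmap had 0.02 (-0.28 to 0.32) and -0.09 (-0.39 to 0.21). The 2 transcription factors likewise did not pass the test.

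Sox10 was at 33.1, 46.7, 30.0, 38.1, 40.0 and 35.0 CPM in BALB/c sham libraries 50, 51, 55, 56, 57 and 71, and at 36.3, 44.6, 43.3 and 47.6 CPM in SNI libraries 49, 64, 65 and 70. The groups overlapped, although 3 of the 4 injured libraries were above all sham libraries but 51. Its log2 fold change of 0.21 was the largest of the 8 in BALB/c (95% interval -0.05 to 0.46, edgeR adjusted p 0.322), and it was 0.12 in B10.D2 (-0.14 to 0.37, adjusted p 0.705). Egr2 was at 13.4, 16.8, 14.5, 15.1, 5.85 and 11.6 CPM in BALB/c sham libraries 50, 51, 55, 56, 57 and 71, and at 14.3, 13.2, 14.3 and 15.1 CPM in the 4 SNI libraries. Library 57 was the lowest, below the 11.6 CPM of library 71, but it was not set apart by the rule of the closing section. The log2 fold change of Egr2 was 0.14 (95% interval -0.36 to 0.64) in BALB/c and -0.06 (-0.57 to 0.46) in B10.D2.

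The difference in injury change between the strains was also not detectable for any of the 8 genes. With edgeR 0 of 8 interaction terms were called, against 0.0243% of all features, and 0 of 8 had an unadjusted p under 0.05 or a DESeq2 call. The interaction, B10.D2 change minus BALB/c change, lay between -0.20 for Egr2 (95% interval -0.91 to 0.52) and 0.06 for Prx (-0.46 to 0.59). Males and females did not differ detectably either, with 0 of 8 called by edgeR or DESeq2 and 0 at an unadjusted p under 0.05, where 0.243% of features were called. The male minus female log2 difference was positive for 7 of the 8 genes and at most 0.12, for Prx (95% interval -0.15 to 0.38). That direction rested on BALB/c sham libraries 51, a male, and 57, a female, since without both all 8 differences were negative, from -0.11 to -0.03.

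The strains themselves differed in a large share of the transcriptome but not detectably in these genes. In sham ganglia 21.6% of features were called between B10.D2 and BALB/c, and in injured ganglia 20.9%, whereas edgeR called 0 of the 8 genes in both, with 0 at an unadjusted p under 0.05 and 0 by DESeq2. Mbp came closest in sham, at 659 ± 20.5 CPM (SD, n = 5) in B10.D2 against 801 ± 276 CPM (SD, n = 6) in BALB/c, a log2 difference of -0.29 (95% interval -0.60 to 0.03, edgeR adjusted p 0.206). Without BALB/c sham library 57 that difference was -0.38 and passed the threshold (edgeR adjusted p 0.0449). In injured ganglia the Mbp mean was 770 ± 42.0 CPM (SD, n = 4) for BALB/c and 646 ± 61.8 CPM (SD, n = 5) for B10.D2. That log2 difference was -0.24 (-0.59 to 0.11, edgeR adjusted p 0.348), and with BALB/c sham libraries 51 and 57 both left out of the fit, a choice made after their values were seen, it was -0.27 and passed (edgeR adjusted p 0.0284).

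Egr2 was the other gene whose strain comparison turned on a library. In SNI ganglia it was at 16.7, 7.86, 10.9, 7.87 and 7.56 CPM in B10.D2 libraries 69, 76, 78, 89 and 90, against 13.2 to 15.1 CPM in the 4 BALB/c libraries. Library 69 lay above all BALB/c libraries and the other 4 lay below all of them. The log2 difference was -0.47 (95% interval -1.0 to 0.05, edgeR adjusted p 0.209) with library 69 and -0.725 (edgeR adjusted p 0.0271) without it. The other 6 genes had log2 strain differences between -0.19 and 0.10 over both surgeries, and none was called.

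**Figure D2:**
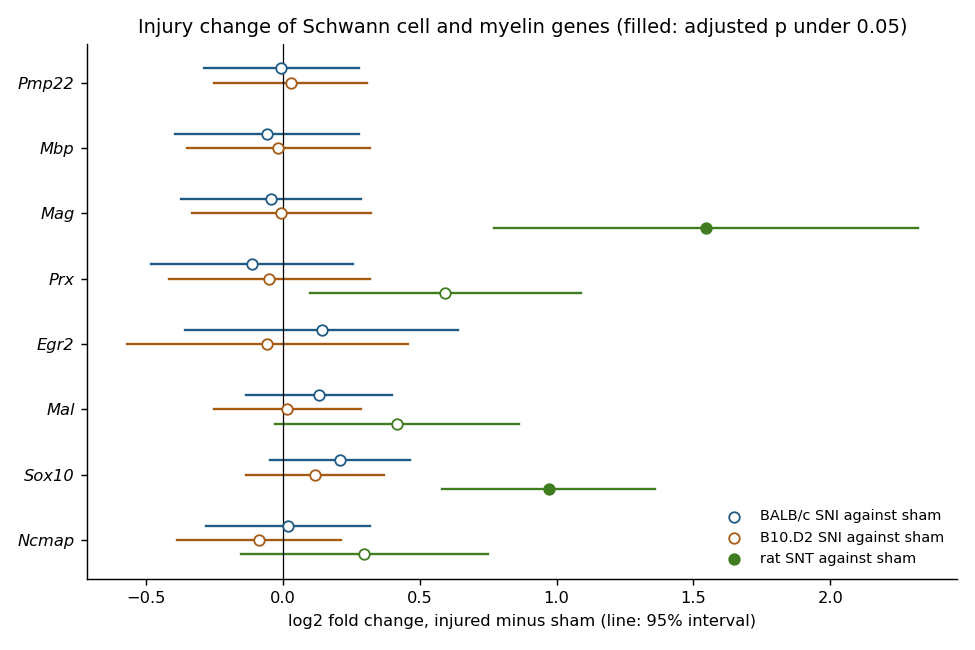
Log2 fold change of injured over sham (horizontal axis) for each of the 8 genes (vertical axis) in BALB/c, B10.D2 and rat, with 95% intervals as lines and filled points for genes called at an adjusted p under 0.05. All mouse points lie within 0.21 of 0, and the filled points are Mag at 1.55 and Sox10 at 0.97 in rat.

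In rat, Mag and Sox10 were higher after SNT than in sham. Of the 5 genes tested, 2 were called, both higher, where 27.4% of all 13690 features tested were called and 12.3% were called higher, so the share of 2 in 5 stands against a high background. The median log2 fold change of the 5 genes was 0.59, beside 0.003 over all features, and all 5 values were above 0. Pmp22, Mbp and Egr2 were listed at 0 in all 8 rat libraries, and no level is drawn from that. Of the protein-coding genes within 1 Mb of each of these 3 in the mouse genome that had at least 5 CPM in mouse and a rat symbol, all were also listed at 0 in rat (11 of 11 around Pmp22, 3 of 3 around Mbp and 4 of 4 around Egr2). Around the 5 genes that were counted, 0 to 2 of 16 to 38 such neighbours were.

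Mag was at 26.4, 23.1, 33.1 and 38.1 CPM in rat sham libraries 1 to 4 and at 36.8, 137, 107 and 70.99 CPM in SNT libraries 1 to 4. SNT library 1 lay within the sham range and the other 3 lay above it. Means were 88.04 ± 43.6 CPM (SD, n = 4) after SNT and 30.2 ± 6.73 CPM (SD, n = 4) in sham, a log2 fold change of 1.55 (95% interval 0.77 to 2.32, edgeR adjusted p 0.0146). Sox10 was at 158, 165, 153 and 175 CPM in sham libraries 1 to 4 and at 222, 406, 363 and 285 CPM in SNT libraries 1 to 4. The groups did not overlap, and SNT library 1 was again the lowest injured library. The log2 fold change of Sox10 was 0.97 (0.583 to 1.359, edgeR adjusted p 0.0108). Mag and Sox10 were called under each of the 15 alternatives tried.

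Prx was at 1116, 1059, 1412 and 945 CPM in sham libraries 1 to 4 and at 1110, 2273, 1912 and 1545 CPM in SNT libraries 1 to 4, so that SNT library 1 fell among the sham libraries. Its log2 fold change was 0.59 (95% interval 0.10 to 1.09, edgeR adjusted p 0.0711, DESeq2 adjusted p 0.0341). Mal was at 456, 396, 604 and 420 CPM in sham and at 432, 765, 722 and 584 CPM after SNT, with a log2 fold change of 0.42 (-0.03 to 0.86, edgeR adjusted p 0.14). Ncmap was at 179, 162, 210 and 121 CPM in sham and at 147, 251, 239 and 188 CPM after SNT, with a log2 fold change of 0.30 (-0.15 to 0.75, adjusted p 0.288). SNT library 1 was the lowest injured library for all 5 genes, and library 2 was the highest. Without SNT library 1, Prx (0.76, edgeR adjusted p 0.0115) and Mal (0.56, adjusted p 0.029) were called as well, which makes 4 of 5. Without SNT library 1 and sham library 4 together, a choice that rests on earlier results of these data, Mag (1.95) and Sox10 (1.17) were called beside Prx (0.70, edgeR adjusted p 0.0153) and Mal (0.53, adjusted p 0.0409), where 6105 features were called in place of 3753.

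**Figure D3:**
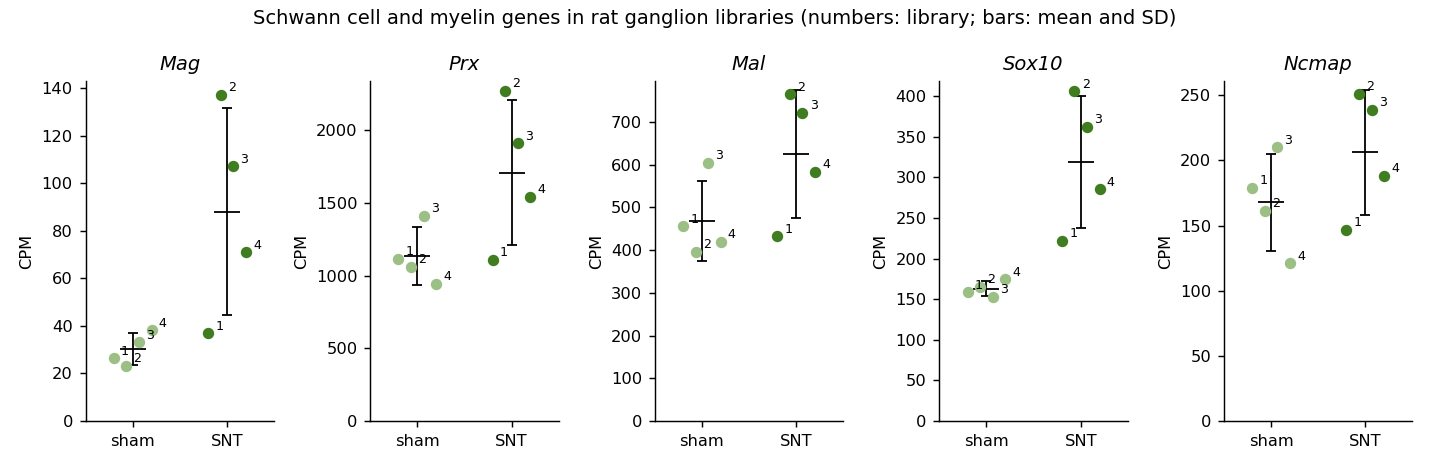
Level in CPM (vertical axis, linear from 0) of the 5 genes counted in rat, in each sham and SNT library (numbered points), with the group mean and SD as bars. SNT library 1 lies within the sham range for Mag, Prx, Mal and Ncmap, and for Sox10 at 222 CPM it lies above the 4 sham libraries, which reach 175 CPM.

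Markers of other cells differed in the same rat comparison, where 12.3% of all features were called higher and 15.1% lower. The summed level of the fibroblast list (Dcn, Lum, Pdgfra, Col1a1, Col1a2 and Col3a1, of which 4 were tested and 2 were called higher) was 2980 to 5330 CPM in sham and 6630 to 10800 CPM after SNT. Of the macrophage list 4 of 8 genes were tested and 1 was called higher, with sums of 83.0 to 292 CPM and 259 to 346 CPM. The satellite glial list had sums of 157 to 240 CPM and 272 to 490 CPM over the 2 of 8 genes with counts, of which Entpd2 was called higher and Slc1a3 lower. Of the sensory neuron list 3 of 10 genes were tested, and 2 of them fell, Isl1 by 1.09 and Avil by 1.42 on the log2 scale. Prph, the other gene tested, had a positive change and was not called. The sums of that list overlapped, at 4600 to 6760 CPM in sham and 3690 to 6260 CPM after SNT. The part of these shifts in the rise of Mag and Sox10 was not tested.

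Mbp, Mag, Mal and Sox10 are also expressed by oligodendrocytes, the myelinating cells of the spinal cord, whose RNA could enter with a nerve root. In mouse, markers that define those cells were near 0. Mog had 14 counts and Olig2 5 counts over all 20 mouse libraries, and the summed level of Mog, Opalin, Mobp, Olig2, Ermn and Gpr17 was 0.119 to 1.83 CPM per library. Only Mobp of these 6 passed the filter, and edgeR did not call it in either strain (log2 fold changes -0.69 and -0.39). In rat the sum was 2.23 to 5.30 CPM, with Mog, Olig2 and Gpr17 listed at 0. As for Pmp22 and Mbp, no level is drawn from those 0 values. The rat sum thus rests on Opalin, Mobp and Ermn alone and cannot show how much spinal cord RNA was present.

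For 6 of the 8 genes, all but Egr2 and Sox10, the coefficient of variation was highest among the uninjured BALB/c animals. The coefficient of variation of Pmp22 was 30.0% over the 6 BALB/c sham libraries, against 4.59% in B10.D2 sham, 5.20% in BALB/c SNI and 4.30% in B10.D2 SNI. For Mbp it was 34.4%, against 3.11%, 5.45% and 9.56% in the same order. Egr2 had 30.0%, 25.1%, 5.42% and 38.1%, with its highest value in B10.D2 SNI, and Sox10 had 15.8%, 16.4%, 11.2% and 11.7%. The summed level of the 8 genes was 3472 CPM in sham library 51, a male, and 1508 CPM in sham library 57, a female, with 1808 to 2667 CPM in the other 4 BALB/c sham libraries. Library 51 was the highest of its group for 8 of 8 genes and library 57 the lowest for 7 of 8, all but Sox10.

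Libraries 51 and 57 were then set side by side as a description, chosen after their values were seen. The ratio of library 51 to library 57 was 2.21 for Pmp22, 2.51 for Mbp, 2.54 for Prx, 2.0 for Mag, 1.95 for Mal, 1.99 for Ncmap and 2.87 for Egr2, but 1.17 for Sox10. The other myelin structural proteins had a median ratio of 1.93 over 13 genes, from 0.977 to 10, and their top value belonged to Pmp2, a fatty acid binding protein of peripheral myelin, at 17.3 CPM in library 51 and 1.73 CPM in library 57. Ugt8a and Fa2h, which make the galactolipids of myelin, had ratios of 2.52 and 2.31, whereas the cholesterol enzymes Hmgcs1 and Sqle had 0.958 and 0.858. The oligodendrocyte list, with Mobp as its 1 gene tested, had a ratio of 2.0, from 0.777 CPM in library 51 and 0.388 CPM in library 57. The lists below had lower medians. They were 1.08 over 12 Schwann cell receptors and signals, 0.954 over 12 transcription factors and cofactors, 1.01 over 3 nonmyelinating Schwann cell markers, 1.05 over 8 satellite glial markers and 0.981 over 10 sensory neuron markers. They were 1.08 over 14 lipid genes, 1.21 over 6 fibroblast markers and 0.951 over 6 endothelial markers. The lowest medians came from 14 immature and repair genes (0.828), 10 nerve injury markers (0.692), 8 macrophage markers (0.652) and 3 red blood cell genes (0.517).

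**Figure D4:**
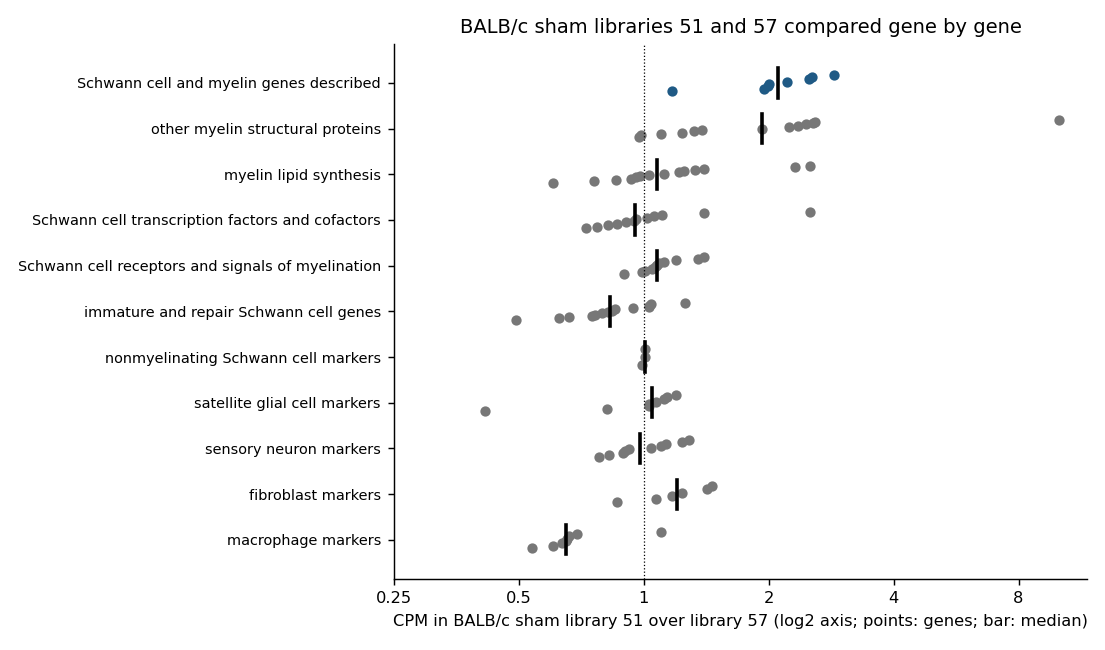
Ratio of the level in BALB/c sham library 51 to that in sham library 57 (horizontal axis, log2 scale) for each gene of a list (points), with the list median as a bar. Of the 8 genes described, 7 lie between 1.95 and 2.87 and Sox10 lies at 1.17, while the medians of the neuron, satellite glial and receptor lists lie close to 1.

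The same coordination ran through the 20 mouse libraries. Pearson's r of log2(CPM + 1) was 0.72 to 0.93 (median 0.85) over the 15 pairs among Pmp22, Mbp, Mag, Prx, Mal and Ncmap, with Spearman's rho from 0.39 to 0.94 (median 0.76). Subtracting the mean of each group left 0.77 to 0.96 (median 0.91). Both genes of a pair were read from the same libraries with the same depth and normalization. Without sham libraries 51 and 57 the 15 values were 0.41 to 0.86 (median 0.71). For Pmp22 and Prx, r was 0.85 over 20 libraries and 0.59 without sham libraries 51 and 57, the 2 farthest from the median of Pmp22, and for Pmp22 and Mag it was 0.73 and 0.41. For Mbp and Mal, r was 0.91, and 0.92 without the 2 libraries farthest from the median of Mbp, sham 51 and 56.

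The 2 transcription factors differed from each other in this respect. Egr2 followed the 6 myelin and membrane genes with r of 0.55 to 0.78 (median 0.68, rho 0.50 to 0.86), and 0.33 to 0.74 (median 0.52) without sham libraries 51 and 57. Sox10 had r of only 0.10 to 0.32 with the same 6 genes (median 0.17, rho -0.01 to 0.33), -0.02 to 0.27 without sham libraries 51 and 57, and -0.08 with Egr2. In the 8 rat libraries Sox10 had r of 0.63 to 0.96 with Mag, Prx, Mal and Ncmap, and 0.57 to 0.93 once group means were subtracted. The highest value was with Mag, at r 0.96 (rho 0.88), and it was 0.86 without SNT libraries 2 and 3. With Ncmap it fell from 0.63 to -0.01 without those 2 libraries.

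**Figure D5:**
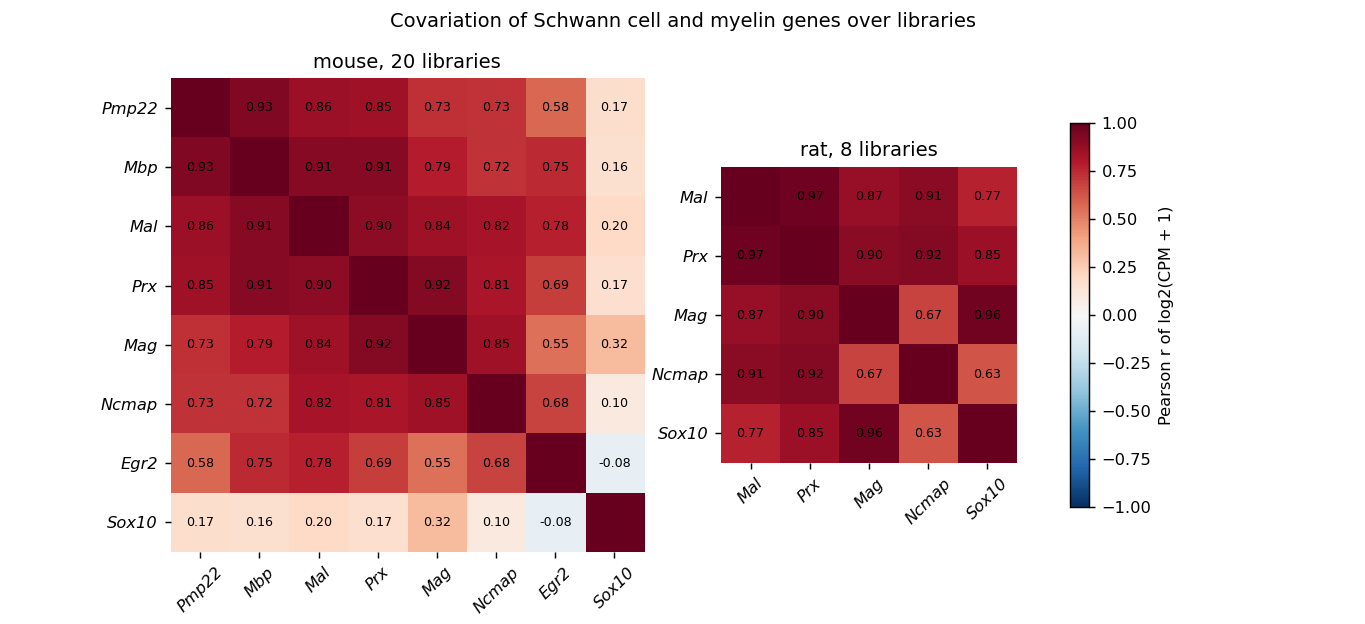
Pearson's r of log2(CPM + 1) between each pair of genes (rows and columns) over 20 mouse libraries and over 8 rat libraries, as colour and number. In mouse the 6 myelin and membrane genes form a block of 0.72 and above, Egr2 has 0.55 to 0.78 with them, and Sox10 has at most 0.32.

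Among the genes whose levels went most closely with the mean of the 8 in mouse, of 10481 annotated genes of at least 10 CPM, were Drp2 (r 0.97), Cldn19 (0.96), Bcas1 (0.94), Mlip (0.92) and Pllp (0.90), over 20 libraries. Drp2 binds periaxin, and Cldn19 is the claudin of Schwann cell tight junctions. Sham libraries 51 and 57 were among the 20, and the ratio of 51 to 57 was 2.46 for Drp2, 2.36 for Cldn19 and 2.24 for Pllp. In rat, among 6842 genes and over 8 libraries, they were Magi2 (0.98), Mme (0.98), Cldn19 (0.98), Bcas1 (0.98), Khdc4 (0.97) and Ptpre (0.97), so that Cldn19 and Bcas1 stood in both sets. With group means subtracted these rat values were 0.945 to 0.967.

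Some genes of the wider Schwann cell lists were called with injury in mouse, where none of the 8 genes was. Of 13 other myelin structural proteins, 3 were called higher in BALB/c, among them Cnp by 0.33 (SE 0.077, edgeR adjusted p 0.00845) and Cmtm5 by 0.21 (SE 0.0671, adjusted p 0.0484). The list did not move as one, since 7 of the 13 values were positive, with 6 at an unadjusted p under 0.05. DESeq2 called 3 higher and 1 lower there. In B10.D2 0 of 13 were called by edgeR or DESeq2, and 1 had an unadjusted p under 0.05. Cnp is also expressed by other glia of the ganglion. A call depends on precision too. Sox10 had the same log2 fold change of 0.21 in BALB/c as Cmtm5 but an SE of 0.122, and was not called. Of 14 genes of myelin lipid synthesis edgeR called only Aspa, which releases acetate for lipid synthesis, in BALB/c (0.45, SE 0.0837), DESeq2 called 1 higher and 1 lower there, and 0 were called in B10.D2 by edgeR or DESeq2, with 2 at an unadjusted p under 0.05. The median log2 fold change was 0.002 and 0.05 for the structural list and -0.08 and -0.09 for the lipid list, in BALB/c and B10.D2.

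Of 12 receptors and signals of myelination, 6 were called higher and 1 lower in BALB/c, where 4.82% of all features were called higher and 4.87% lower. Lgi4, a secreted ligand of Adam22, had 136 ± 8.49 CPM (SD, n = 6) in sham and rose to 195 ± 18.5 CPM (SD, n = 4) after SNI, a log2 fold change of 0.52. Erbb3 and Erbb2, the receptor pair for neuregulin, rose by log2 fold changes of 0.49 and 0.48. The median of the 12 was 0.18 in BALB/c and 0.10 in B10.D2. Nrg1, the axonal ligand of that receptor pair, fell by 0.36 on the log2 scale in BALB/c and by 0.28 in B10.D2. In B10.D2 0 of the 12 were called higher by edgeR and 3 by DESeq2, with 7 of the 12 at an unadjusted p under 0.05, and 0 of 12 interaction terms were called by either tool (1 at an unadjusted p under 0.05), so a difference between the strains was not shown for them.

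Of 12 Schwann cell transcription factors and cofactors, 3 were called higher in each strain. Over all features 4.82% were called higher in BALB/c and 2.1% in B10.D2. Runx2 had 5.20 ± 0.865 CPM (SD, n = 6) in BALB/c sham and rose to 10.8 ± 1.08 (SD, n = 4) after SNI. In B10.D2 it rose from 4.79 ± 0.264 (SD, n = 5) to 9.63 ± 1.04 CPM (SD, n = 5). Jun, a factor of the repair state, rose by a log2 fold change of 0.57 in BALB/c, and Zeb2 rose by 0.39 and 0.33. The third call in B10.D2 was Olig1, at 0 to 0.0815 CPM in sham and 0.161 to 0.307 CPM after SNI, a level of a few counts. Of 14 genes of immature and repair Schwann cells, 7 were called higher in BALB/c mice and 4 in B10.D2 mice. The growth factors Gdnf and Btc rose by log2 fold changes of 2.62 and 2.57 in BALB/c and 1.95 and 2.02 in B10.D2, and the matrix protein Tnc by 2.07 and 2.48. Neither list is specific to Schwann cells. The medians were 0.33 and 0.21 for the transcription factors, and 1.02 and 0.67 for the immature and repair genes. Of 3 nonmyelinating Schwann cell markers, Chl1 alone was called by edgeR, at 1.02 and 0.66 (DESeq2 called 1 higher and 1 lower in BALB/c), in a list with medians of 0.02 and 0.05, and neurons express it too.

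Markers of the other cells of the ganglion moved less evenly in mouse. Beside them, 4.82% of all features were called higher and 4.87% lower in BALB/c, and 2.1% and 2.48% in B10.D2. Of 8 satellite glial markers 2 rose (Entpd2 by 0.88 and Cdh19 by 0.54 in BALB/c) and 1 fell (Aldoc) in each strain, and of 10 neuron markers 4 fell in each strain (Snap25, Nefl, Nefm and Nefh). Macrophage markers had 3 of 8 called higher in BALB/c and 0 in B10.D2 (1 by DESeq2, and 6 of 8 at an unadjusted p under 0.05 in each strain). Fibroblast markers had 1 of 6 called higher in each, Lum, and endothelial markers had 1 of 6 in BALB/c, Cldn5, and 0 in B10.D2 by either tool or at an unadjusted p under 0.05. Of the 3 red blood cell genes tested 0 were called in either strain by either tool, with 0 at an unadjusted p under 0.05. The medians of BALB/c and B10.D2 were 0.11 and 0.01 for satellite glia, -0.21 and -0.20 for neurons, 0.50 and 0.42 for macrophages, 0.30 and 0.26 for fibroblasts, 0.09 and 0.01 for endothelium, and 0.62 and -0.40 for red blood cells.

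In rat most tested genes of 3 wider Schwann cell lists were called higher, where 12.3% of all features were called higher and 15.1% lower. Genes of these lists are not all specific to Schwann cells, and which cells the rises came from was not tested. Of 10 transcription factors and cofactors tested 7 were called higher, among them Jun by a log2 fold change of 1.34, Id2 by 0.99, Zeb2 by 0.91 and Tead1 by 0.89. Of 7 receptors and signals tested 5 rose, including Erbb3 by 0.98 (from 345 ± 40.0 to 682 ± 175 CPM, SD, n = 4 each) and Itga6, an integrin chain that binds laminin, by 0.95. Of 8 other myelin structural proteins 5 rose, among them Cldn19 by 0.81, Gjb1, the connexin of noncompact myelin, by 0.71, and Dag1 by 0.46. Of 9 lipid genes 1 rose (Cers2) and 1 fell (Sqle), of 8 immature and repair genes 1 rose (Ncam1), and of 2 nonmyelinating markers Chl1 rose by 1.20. The medians were 0.87 for the transcription factors, 0.78 for the receptors and signals, 0.42 for the structural proteins, -0.10 for the lipid genes, 0.30 for the repair genes and 0.67 for the nonmyelinating markers, beside 0.003 over all features. The endothelial gene tested and the oligodendrocyte gene tested were not called by either tool, with 0 at an unadjusted p under 0.05, and the red blood cell gene Alas2 fell by 1.49. Of 6 nerve injury markers tested 5 were called higher, with a median of 1.35. The summed level of that list was uneven in sham, at 198 to 651 CPM (median 222), and was 792 to 1160 CPM after SNT.

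Several other genes of the pathway differed by strain. Pmp2 had 7.58 ± 5.20 CPM (SD, n = 6) in BALB/c sham and 2.68 ± 0.888 CPM (SD, n = 5) in B10.D2 sham, a log2 difference of -1.52 (edgeR adjusted p 0.002), and sham library 51 was its top library. Aspa was higher in B10.D2, at 69.4 ± 6.23 CPM (SD, n = 5) against 35.7 ± 4.23 CPM (SD, n = 6). Of 13 other myelin structural proteins 4 were lower in B10.D2 and 0 higher in sham, and of 12 receptors and signals 4 were lower, Lgi4 by a log2 difference of -0.44 and Itga6 by -0.30 among them, where 10% of all features were called lower. After SNI 4 of the 13 and 8 of the 12 were lower and 0 higher, where 9.99% were. Pou3f2, a POU factor of the Schwann cell lineage, had -0.53 in sham and -0.74 after SNI.

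The study assembled LncRNAs from its own reads, and 8 of them lay within 10 kb of 7 of the 8 genes in mouse, all but Mal. Of these 8, 6 passed the filter on low counts. One of them rose with SNI. LncRNA6012 (chromosome 10, 67499873 to 67534245, minus strand, 41 exons) lies 1230 bases before the start of Egr2 on the opposite strand. It was at 0.298, 0.125, 0.193, 0.167, 0.328 and 0.371 CPM in BALB/c sham libraries 50, 51, 55, 56, 57 and 71 and at 1.07, 1.45, 1.32 and 1.53 CPM in SNI libraries 49, 64, 65 and 70, which is 5 to 13 counts against 33 to 58. The groups did not overlap, and the log2 fold change was 2.45 (95% interval 1.74 to 3.16, edgeR adjusted p 6.17e-05).

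In B10.D2, LncRNA6012 was at 0.263 to 0.543 CPM (median 0.459, n = 5) in sham and at 2.88, 0.893, 1.21, 0.803 and 1.15 CPM in SNI libraries 69, 76, 78, 89 and 90, again without overlap. Its log2 fold change was 1.61 (0.93 to 2.28, edgeR adjusted p 0.00491), and 1.23 without library 69 (edgeR adjusted p 0.00766), the library that was also highest for Egr2. It did not pass in B10.D2 males alone (1.2, edgeR adjusted p 0.327) or females alone (1.88, adjusted p 0.12), fits of fewer samples. None of its 40 gaps between exons coincided with a deposited splice junction, so its exon chain has no such support. Egr2, as given above, did not pass the test in either strain.

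LncRNA2166 (chromosome 11, 63160565 to 63186753, plus strand, 35 exons) begins 1018 bases past the end of Pmp22 on the same strand. Its level was 3.99 to 6.13 CPM in BALB/c sham and 11.8, 8.38, 4.36 and 6.27 CPM in SNI libraries 49, 64, 65 and 70, with a log2 fold change of 0.62 (95% interval 0.10 to 1.14, edgeR adjusted p 0.13). Without SNI library 65 it was 0.84 and called (edgeR adjusted p 0.0336). In B10.D2 it was -0.01 (-0.54 to 0.52). Between the strains after SNI it had -0.53 (edgeR adjusted p 0.172), and -0.80 without SNI library 65 (adjusted p 0.031). None of its 34 gaps coincided with a deposited splice junction, and 0 junctions on its strand began or ended in its exons. Of the 12 deposited plus-strand junctions that touch Pmp22, 1 starts in the gene at 63151260 and ends at 63187810, which is 28263 bases past the gene and beyond the whole of LncRNA2166. A further 2 begin upstream of the annotated gene, at 63127899, and end at 63133127 and 63151118 within it.

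Of the other neighbours, LncRNA905 (chromosome 4, 135333256 to 135473298, minus strand, 3 exons) spans Ncmap on its own strand without sharing exon bases, and differed by strain. It was at 7.96 CPM in BALB/c sham and 5.93 CPM in B10.D2 sham, a log2 difference of -0.42 (edgeR adjusted p 0.0015), and at 9.60 and 6.51 CPM after SNI, a difference of -0.56 (adjusted p 0.000248). Ncmap itself had strain differences of 0.10 and -0.01. LncRNA2812 (chromosome 15, 79173843 to 79175646, plus strand), 8603 bases from Sox10, was lower in B10.D2 sham by -0.65 (edgeR adjusted p 0.0339), a call that was lost in the fits without sham library 55, 57, 58, 77 or 88 (adjusted p 0.0608 to 0.11), and in that without 51 and 57. After SNI it had -0.61 (edgeR adjusted p 0.0667), and passed by DESeq2 (-0.61, adjusted p 0.0459), with no filter on low counts (-0.60, adjusted p 0.027) and without SNI library 65 (-0.79, adjusted p 0.0203). LncRNA1371 within Mag, LncRNA4564 across Ncmap, LncRNA1474 within Prx and LncRNA7589 within Mbp lay on the opposite strand to the gene and had at most 20 counts in a library. LncRNA1371 was not called in BALB/c (0.84, edgeR adjusted p 0.225) or between the strains in sham (0.46, adjusted p 0.485), but passed without sham library 51 in both (1.45, adjusted p 0.0115, and 1.11, adjusted p 0.0281), and in BALB/c without 51 and 57 (1.32, adjusted p 0.0318). All 344 exon bases of LncRNA1474 fell in exons of Prx.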

How the data were processed

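The authors aligned paired-end reads of 100 bp from strand-specific libraries with STAR to mm10 and rn6 and counted them per gene with HTSeq, on Ensembl annotation joined with their assembled LncRNAs. The deposited files hold raw counts per feature, and deposited positions of LncRNA exons and splice junctions (mm10). Columns of the authors' own comparisons (fold changes and p-values from DESeq2) were not used. Of 30 samples, 28 have a count column, and 2 mouse libraries were not analysed here.

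Counts were tested with edgeR 4.0.16 (TMM, filterByExpr, quasi-likelihood test, two-sided, Benjamini-Hochberg over all features tested). The mouse fit held all 20 libraries with strain, surgery, their interaction and sex, and the rat fit held surgery. DESeq2 1.42.0 and the other alternatives are given in the closing section. CPM used TMM-scaled totals, and per kilobase values used merged GENCODE M21 exons. Rat libraries were numbered by accession order, and nothing ties them to separate cultures or litters, so p-values measure the spread between these pools. Depth sets a floor: 3 counts correspond to 0.0716 to 0.1 CPM in mouse and 0.168 to 0.251 CPM in rat.

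All 8 genes were named in every comparison, with LncRNAs within 10 kb of them, up to 4 called genes of largest change per list and the 6 genes most alike. Genes and lists were chosen with earlier results of these data known. Some genes that these rules name are not reported here. The fit was tested on simulated data.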

Additional observations from a re-analysis of the deposited data

Results flagged for a closer look

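Within groups of 4 to 6 libraries, the highest or lowest library was compared with its nearest neighbour for each of the 8 genes and their neighbouring LncRNAs, in 74 groups, of which chance alone sets apart about 1 in 20. None of the 8 genes had such a library. LncRNA6012, beside Egr2, was at 2.875 CPM (103 counts) in B10.D2 SNI library 69, where the next library had 1.212 CPM. LncRNA1371, within Mag on the opposite strand, was at 0.4761 CPM (19 counts) in BALB/c sham library 51, where the next had 0.1674 CPM, and at 0.1815 CPM (7 counts) in BALB/c SNI library 65, where the next had 0.3511 CPM. LncRNA7589, within Mbp on the opposite strand, was at 0.28 CPM (10 counts) in B10.D2 SNI library 90, where the next had 0.107 CPM. The injury change differed between the strains for 1 listed gene, the neuropeptide Gal of the nerve injury list, with an interaction of -2.373 on the log2 scale (edgeR adjusted p 0.014).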

How the results depend on the processing

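No mouse injury call among the 8 genes arose under any alternative, and no called value changed sign. Of 1336 alternative mouse values of these genes 3 passed the threshold, and 113 uncalled values had the other sign. The 3 were Mbp between the strains in sham without BALB/c sham library 57, Egr2 between the strains after SNI without B10.D2 SNI library 69, and Mbp after SNI without BALB/c sham libraries 51 and 57, so the counts of called genes between the strains ranged from 0 to 1 over single libraries left out. Without 51 and 57 the count was 1 after SNI and 0 in sham. In rat 2 to 4 were called with 1 library left out, and 4 without sham library 4 and SNT library 1, where 6105 features were called. Of 75 alternative rat values 35 passed and 0 changed sign. Over all features, BALB/c injury calls were 415 in males alone, 902 in females alone, 1588 without sham libraries 51 and 57 (chosen after seeing the data) and 1643 to 2648 with 1 library left out. B10.D2 calls were 95 in males alone, 187 in females alone and 665 to 1214 with 1 left out, lowest without SNI libraries 90 (665) and 69 (728); the causes were not tested beyond the smaller number of samples. Interaction calls were 10 by DESeq2, 3 with at least 10 counts in every library, 2 without sham 51 and 57, and 3 to 6 with 1 left out (3 without B10.D2 sham 67 or BALB/c sham 71, SNI 49 or SNI 65). Sex calls were 245 by DESeq2, 222 with no filter and 35 to 159 with 1 left out (159 without BALB/c sham 56, 38 without BALB/c SNI 65, 35 without B10.D2 SNI 89). Rat calls were 1483 to 5041 with 1 left out, with 2163, 2219 and 1483 without sham 1, 2 and 3 and 1622, 1919 and 2113 without SNT 2, 3 and 4. With the number that 1 sham and 1 SNT library share in their titles as a replicate block, 2558 rat features were called in place of 3753, and Mag (1.42, edgeR adjusted p 0.0381) and Sox10 (0.94, adjusted p 0.0273) were the 2 genes called. Deviations of sham and SNT libraries of the same number had correlations of 0.05, -0.29, -0.11 and -0.09. Those of different numbers ran from -0.557 to 0.487, so these few values neither show nor exclude a pairing by number. LncRNA6012 in B10.D2 was not called in males alone (1.2, edgeR adjusted p 0.327) or females alone (1.88, adjusted p 0.12). CPM on the library total moved 0 of 42 levels by over 1 SD, and 1 correlation changed sign by rank.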
